A study of Homo sapiens with 8 samples.

Results

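The BCL2 family decides at the mitochondrial surface whether a stressed cell dies by apoptosis, and 10 of its genes were followed in HuH7 cells recovering from oxygen and glucose deprivation. The genes were taken by symbol from a count table of 15745 genes. They comprise 5 BH3-only genes (BCL2L11, BMF, BBC3, PMAIP1 and BID), 2 effectors (BAX and BAK1) and 3 guardians (BCL2L1, MCL1 and BCL2L2). All 10 passed the filter on low counts that 12910 genes passed. The rule used symbols and no measured value, but it was set with earlier results of these data known. HuH7 is a human hepatoma-derived line. All libraries came from wild-type HuH7 cells held for 6 h without glucose at 1% oxygen and then returned to normoxia for 6 h (oxygen-glucose deprivation and reoxygenation, OGD/R). During reoxygenation 4 cultures received the vehicle DMSO (OGD/R+DMSO) and 4 received 20 µM Rk2, a ginsenoside from ginseng, in DMSO (OGD/R+Rk2). Cells without OGD/R, or with Rk2 alone, were not analysed here, so each value compares Rk2 with vehicle after OGD/R in 1 cell line. The labels do not say that replicates were grown separately, and p-values therefore measure the spread between these libraries, which may be technical.

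Apoptosis by the mitochondrial route begins when BAX or BAK1 oligomerises in the outer mitochondrial membrane and releases cytochrome c. The guardians BCL-XL (from BCL2L1), MCL1 and BCL-w (from BCL2L2) hold BAX, BAK1 and the BH3-only proteins in a surface groove. BH3-only proteins carry stress signals by filling that groove or by engaging BAX and BAK1 directly. They differ in the guardians they prefer: BIM (from BCL2L11), PUMA (from BBC3) and BID bind broadly, NOXA (from PMAIP1) prefers MCL1, and BMF binds BCL-XL, BCL-w and BCL2. In the liver, hepatocytes depend on BCL-XL and MCL1, and BID links death receptors at the cell surface to mitochondria.

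Depth ranged from 16374082 to 30310479 counts per library, and the Rk2 library with the highest total was replicate 1. Replicates differed by 14.6 to 26.3 times counting error (chi-square per degree of freedom over genes), so no pair was a library deposited in duplicate. Hepatic markers were abundant, with ALB at 2214 to 2355 and AFP at 5675 to 6319 TMM-normalized CPM (counts scaled to equal library size) over the 8 libraries, and of 8 hepatic markers 1 was called higher (APOB) and 1 lower (FGB) in edgeR. Of 10 markers of other cell types, 4 passed the count filter and 0 differed in edgeR (0 also at an unadjusted p of 0.05), COL1A1, ACTA2, STAB2 and CD3E had at most 17 counts in a library, and PTPRC and VWF were not analysed here. LYZ at 577 to 675 CPM and CD68 at 40.8 to 56.3 CPM were the abundant genes of that list. Among the members, BCL2L11 in OGD/R+Rk2 replicate 2 and BCL2L2 in OGD/R+DMSO replicate 2 stood far below the other libraries of their groups, and these values are given where they bear on a result. A bulk level cannot tell fewer expressing cells from less RNA per cell.

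The feature that unites the family is the BH3 core, the short helix by which members dock into each other's grooves. Its core was sought in the principal protein-coding transcript of each member (GENCODE v29) as a leucine, any 3 residues, a glycine or alanine, and an aspartate. It was found exactly 1 time in 9 of the 10 members, and BCL2L2 had no match to these letters. Below are 36 bases around each match from GRCh38, coding strand, with the codons of the leucine, of the glycine or alanine, and of the aspartate in capitals. They are shown because the BH3-only proteins are named for this stretch, which they share with effectors and guardians.
BCL2L11 (chr2:111150094-111150129, plus strand): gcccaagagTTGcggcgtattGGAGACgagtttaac
BMF (chr15:40104198-40104233, minus strand): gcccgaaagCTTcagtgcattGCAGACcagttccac
BBC3 (chr19:47226582-47226617, minus strand): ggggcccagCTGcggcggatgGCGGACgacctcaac
PMAIP1 (chr18:59902664-59902699, plus strand): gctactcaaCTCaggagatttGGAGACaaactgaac
BID (chr22:17739418-17739453, minus strand): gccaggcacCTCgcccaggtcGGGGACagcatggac
BAX (chr19:48955778-48955813, plus strand): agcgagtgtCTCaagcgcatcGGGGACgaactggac
BAK1 (chr6:33575390-33575425, minus strand): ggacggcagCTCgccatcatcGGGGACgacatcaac
BCL2L1 (chr20:31721925-31721960, minus strand): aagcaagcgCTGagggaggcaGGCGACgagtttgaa
MCL1 (chr1:150578868-150578903, minus strand): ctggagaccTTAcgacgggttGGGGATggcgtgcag
The residue before the aspartate was alanine in BMF and BBC3 and glycine in the other 7. The codon of the leucine was not the same in every member.

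After Rk2, 4 of the 5 BH3-only genes rose (BCL2L11, BMF, BBC3 and PMAIP1), neither effector passed the test, and 1 of the 3 guardians fell (BCL2L1). Thus 5 of the 10 members passed an adjusted p of 0.05 in edgeR's quasi-likelihood test with Benjamini-Hochberg adjustment over all genes, against 18.2% of the 12910 genes tested. By direction, 11.0% of all genes were called higher and 7.24% lower. The median log2 fold change was 0.44 for the BH3-only genes, -0.16 for the effectors, -0.10 for the guardians and -0.00205 for all genes. The CPM of 7 members did not overlap between groups, and 28.3% of all genes had separate groups. With a fold change above 1.5 also required, 1 member (BCL2L11) remained, and 3.04% of all genes met both criteria.

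**Figure D1:**
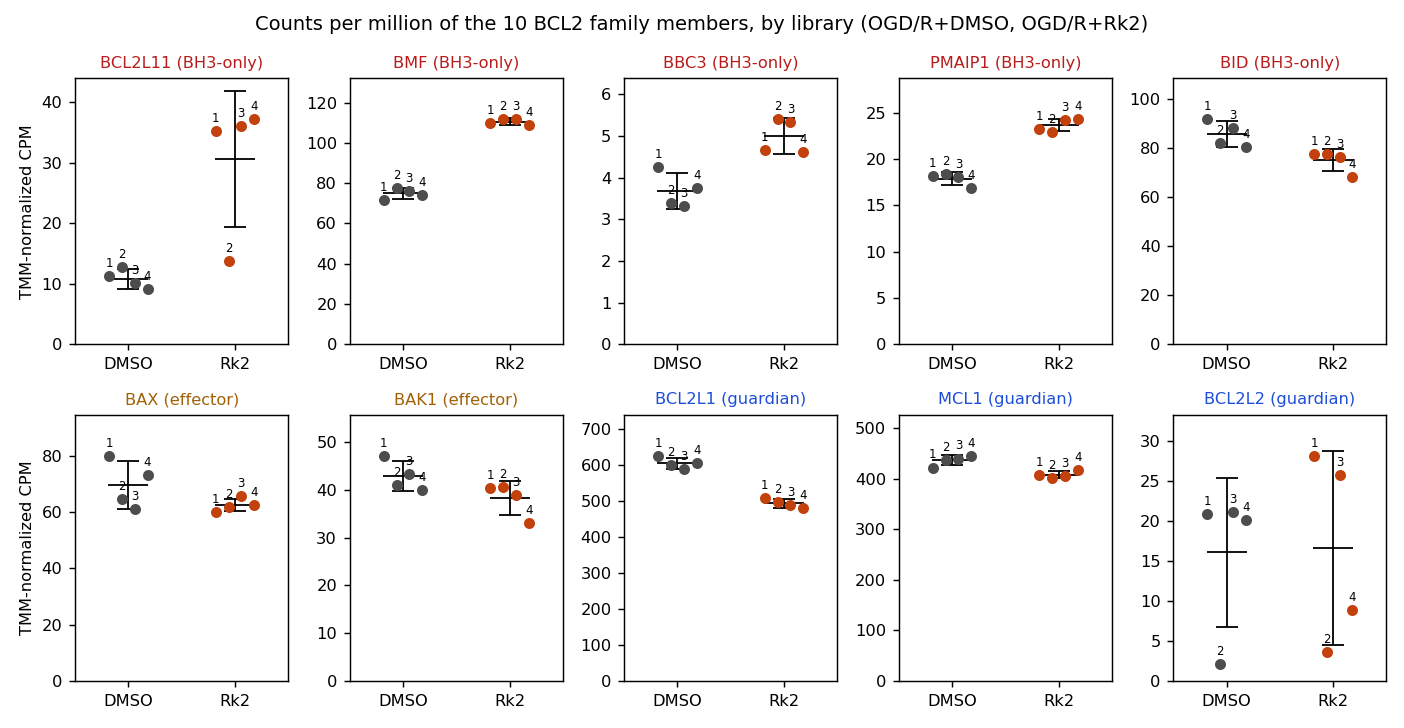
TMM-normalized CPM of each member (vertical axes, each from 0) in the 4 OGD/R+DMSO and 4 OGD/R+Rk2 libraries, with points numbered by replicate and bars for the mean and SD. BMF, PMAIP1 and BCL2L1 form tight, separate groups, BAX and BAK1 overlap, and BCL2L11 and BCL2L2 each have libraries far from the rest of their group.

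BMF, which is tethered to the cytoskeleton through dynein light chains until stress frees it, gave the most reproducible change. Its CPM was 71.6, 77.6, 76.3 and 73.9 in OGD/R+DMSO and 109.8, 112, 112 and 109 in OGD/R+Rk2. The lowest Rk2 library lay well above the highest DMSO library, and the spread within each group was small beside the gap. The means were 74.8 ± 2.68 and 111 ± 1.54 CPM (SD, n = 4 each), giving a log2 fold change of 0.56 (SE 0.0396, 95% confidence interval 0.47 to 0.65, edgeR adjusted p = 1.7e-04). This is a 1.48-fold rise, just under the 1.5-fold mark. FPKM, the deposited level per transcript length, moved alike, from 17.3 ± 1.11 to 26.4 ± 2.34 (SD, n = 4 each). The antisense gene BMF-AS1 overlaps 8.46% of the exon bases of BMF, and strand use in counting is not given in the sources used here.

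PMAIP1, whose product NOXA neutralises MCL1, rose by less but as evenly. Its CPM was 18.2, 18.4, 18.1 and 16.8 in OGD/R+DMSO and 23.2, 22.9, 24.2 and 24.3 in OGD/R+Rk2. All 4 Rk2 libraries were above all 4 DMSO libraries. The log2 fold change was 0.40 (SE 0.0547, 95% confidence interval 0.28 to 0.53, edgeR adjusted p = 0.00296), or 1.32-fold. Per length, PMAIP1 went from 7.63 ± 0.279 to 10.4 ± 0.454 FPKM (SD, n = 4 each).

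BBC3, whose product PUMA binds every guardian, had the lowest mean FPKM of the members in both groups. Its CPM was 4.25, 3.39, 3.31 and 3.75 in OGD/R+DMSO and 4.65, 5.41, 5.33 and 4.6 in OGD/R+Rk2. The groups did not overlap, but the highest DMSO library and the lowest Rk2 library were close. The log2 fold change was 0.44 (SE 0.117, 95% confidence interval 0.17 to 0.71, edgeR adjusted p = 0.0346). These values rest on 60 to 80 counts per library in OGD/R+DMSO and 88 to 142 in OGD/R+Rk2, and leaving out any library other than OGD/R+DMSO replicate 1 took the adjusted p to between 0.0549 and 0.0843 in edgeR.

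BCL2L11, whose product BIM engages all guardians and also BAX, had the largest fold change among the members and the widest spread of the 4 that rose. Its CPM was 11.2, 12.8, 10.0 and 9.06 in OGD/R+DMSO and 35.3, 13.7, 36.1 and 37.2 in OGD/R+Rk2. Rk2 replicates 1, 3 and 4 were close together and far above the DMSO libraries, whereas Rk2 replicate 2 was just above the highest DMSO library. The log2 fold change was 1.504 (SE 0.305, 95% confidence interval 0.798 to 2.2097, edgeR adjusted p = 0.0147), or 2.84-fold, and 1.75 without Rk2 replicate 2. Leaving out any of the 8 libraries kept it past the threshold, while voom with sample weights gave an adjusted p of 0.0549.

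Per length the difference in BCL2L11 was much smaller. FPKM was 6.31, 6.17, 6.17 and 6.16 in OGD/R+DMSO and 9.71, 7.32, 8.33 and 7.52 in OGD/R+Rk2. The groups were again separate, with Rk2 replicate 2 the lowest of its group. The means of 6.20 ± 0.0710 and 8.22 ± 1.08 FPKM (SD, n = 4 each) differ by a log2 ratio of 0.41, against 1.504 from counts. limma on log2(FPKM + 1) gave a log2 fold change of 0.35 (adjusted p = 0.0412), and in that test 4 of the 10 members passed (BCL2L11, BMF, BBC3 and PMAIP1), as did 8.78% of all genes, or 8.35% with a pseudocount of 0.1.

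The difference between the measures can be stated as an implied transcript length. Dividing counts by FPKM and by library size gives the length over which reads were spread, on a relative scale. For BAK1, whose 3 annotated transcripts are 2132 to 2212 nt, it came to 2540 to 2574 nt in all 8 libraries. For BCL2L11 it was 1738, 2065, 1601 and 1462 nt in OGD/R+DMSO and 3657, 1891, 4370 and 5013 nt in OGD/R+Rk2. The 3 Rk2 libraries with high CPM were the 3 with long implied lengths, and Rk2 replicate 2 was within the DMSO range on this measure. The mean log2 length was higher by 1.04 in OGD/R+Rk2 (two-sided exact permutation p = 0.0571, smallest possible 0.0286), a larger absolute difference than in 99.9% of 11321 genes, whose median was 0.0480. GENCODE v29 lists 25 BCL2L11 transcripts in 2 length classes, 8 of 4995 to 5231 nt, with 4219 to 4483 nt after the stop of the reading frame, and 17 of 243 to 1522 nt. Gene-level counts do not separate these isoforms, nor BIM-EL, BIM-L and BIM-S, and whether isoform use or the assignment of reads differed was not tested. MIR4435-2HG on the opposite strand overlaps 10.9% of the exon bases of BCL2L11, and strand use in counting is not given in the sources used here.

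**Figure D2:**
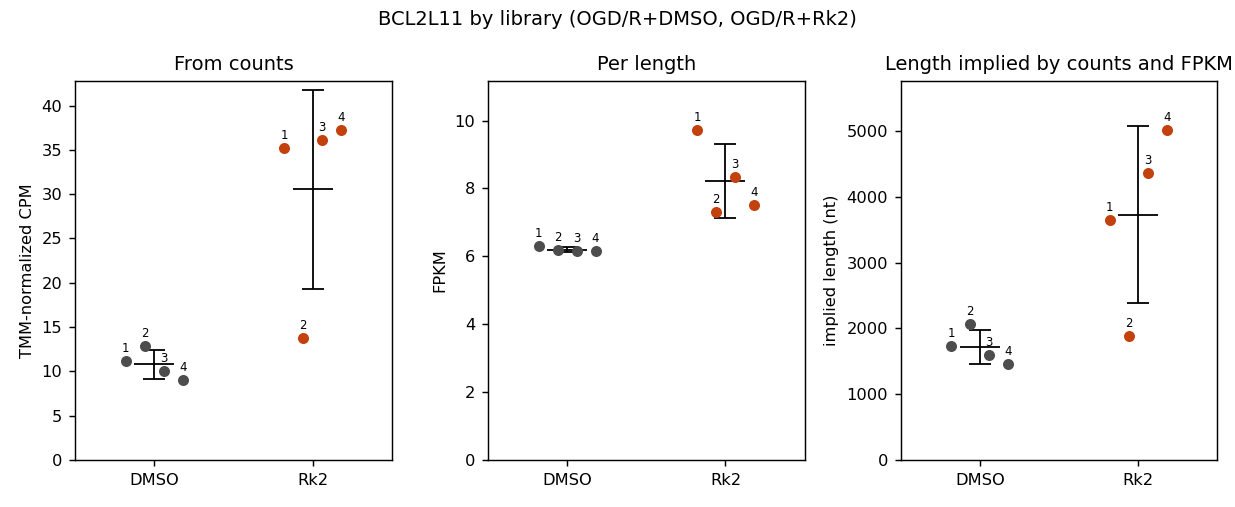
BCL2L11 in each library on 3 scales (TMM-normalized CPM, FPKM, and implied transcript length in nt, each axis from 0), with points numbered by replicate and bars for the mean and SD. CPM and implied length are high together in OGD/R+Rk2 replicates 1, 3 and 4, at 35.3 to 37.2 CPM and 3657 to 5013 nt, while FPKM spans only 6.16 to 9.71 over all libraries.

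BID, which caspase-8 cleaves to its active form, was the BH3-only gene that did not rise. Its CPM was 91.7, 82.1, 88.0 and 80.4 in OGD/R+DMSO and 77.6, 77.6, 76.1 and 68.2 in OGD/R+Rk2. Every Rk2 library was below every DMSO library, yet the log2 fold change of -0.19 (95% confidence interval -0.34 to -0.05) did not pass in edgeR (adjusted p = 0.0670). It passed in DESeq2 (adjusted p = 0.0336) and in edgeR with upper-quartile scaling (adjusted p = 0.0410).

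When each library was given an offset for its own implied length, so that the edgeR fold change is per length, 3 of the 10 members passed (BMF and PMAIP1 higher, BCL2L1 lower), against 8.47% of all genes (5.59% higher and 2.89% lower). The log2 fold change was 0.58 for BMF (edgeR adjusted p = 0.00544), 0.41 for PMAIP1 (edgeR adjusted p = 0.0133) and -0.29 for BCL2L1 (edgeR adjusted p = 0.0464). BCL2L11 had a log2 fold change of 0.38 and an adjusted p of 0.0582 in this fit in edgeR. For BBC3 it was 0.53, with an adjusted p of 0.0580 in edgeR. BMF and PMAIP1 thus passed from counts, in limma on FPKM and with the offset, whereas BCL2L11 and BBC3 missed with the offset and BCL2L1 missed in limma on FPKM. The offset is itself derived from FPKM, so limma on FPKM and the offset fit are not separate measures.

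**Figure D3:**
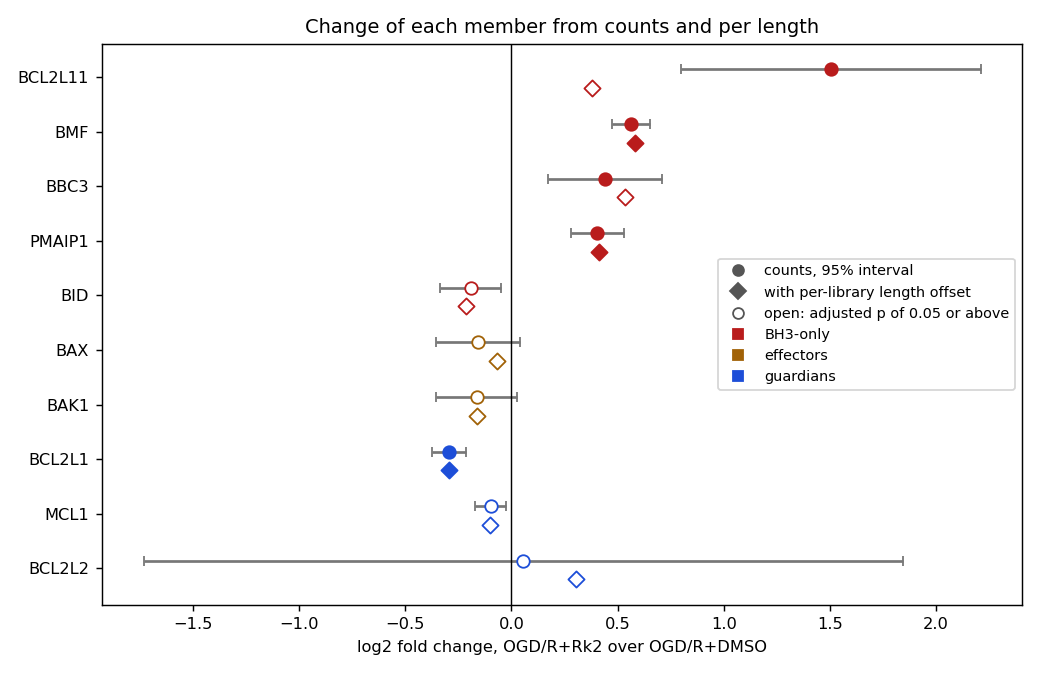
Log2 fold change of each member, OGD/R+Rk2 over OGD/R+DMSO (horizontal axis), from counts (circles, with 95% confidence intervals) and with a per-library length offset (diamonds), filled where the edgeR adjusted p was below 0.05. The circle and diamond lie together for BMF, PMAIP1 and BCL2L1 and far apart for BCL2L11, at 1.504 and 0.38.

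The effectors BAX and BAK1, which form the pore itself, had lower mean counts after Rk2 without passing the test, adjusted or not. BAX was at 80.1, 64.5, 61.0 and 73.2 CPM in OGD/R+DMSO and 60.2, 61.7, 65.6 and 62.6 CPM in OGD/R+Rk2, with the groups overlapping. Its log2 fold change was -0.16 (95% confidence interval -0.35 to 0.04, edgeR adjusted p = 0.237) and became 0.00398 after a correction for gene length. BAK1 was at 47.2, 41.1, 43.4 and 40.02 CPM in OGD/R+DMSO and 40.4, 40.7, 39.0 and 33.1 CPM in OGD/R+Rk2. Its groups overlapped as well, and its log2 fold change was -0.16 (95% confidence interval -0.36 to 0.03, edgeR adjusted p = 0.202).

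BCL2L1, the most abundant guardian, fell by 0.29 on the log2 scale (SE 0.0350, edgeR adjusted p = 0.00173), to 0.816 of its level in vehicle. Its CPM was 626, 600.2, 589.7 and 607 in OGD/R+DMSO and 509, 496, 490.2 and 481 in OGD/R+Rk2. Each of the 4 Rk2 libraries was below each DMSO library, and the 95% confidence interval ran from -0.37 to -0.21. In FPKM the levels were 265, 230.5, 220.3 and 269 in OGD/R+DMSO and 197, 206, 204 and 217 in OGD/R+Rk2. These groups did not overlap as deposited, but with FPKM rescaled to the same sum in every library they did (419.8 to 521 and 396 to 442), and limma on log2(FPKM + 1) gave an adjusted p of 0.0885. Counts do not separate the protective BCL-XL transcript from the short pro-apoptotic BCL-XS. The antisense gene ABALON covers 43% of the exon bases of BCL2L1, and since strand use in counting is not given in the sources used here, its reads cannot be told apart from those of BCL2L1.

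MCL1, a short-lived guardian, was at 422, 438, 440.2 and 446 CPM in OGD/R+DMSO and at 408, 401, 405 and 417 CPM in OGD/R+Rk2. The groups did not overlap, but the difference was small, a log2 fold change of -0.10 (95% confidence interval -0.17 to -0.02) that did not pass in edgeR (adjusted p = 0.0706). MCL1 passed in 5 of 20 alternative settings, including DESeq2 (adjusted p = 0.0137). It also passed after a correction for gene length, where the log2 fold change was -0.18 (edgeR adjusted p = 0.00178). It missed in limma on log2(FPKM + 1) (adjusted p = 0.481) and with the per-library length offset (edgeR adjusted p = 0.201). The FPKM of MCL1 overlapped, at 93.2 to 105 in OGD/R+DMSO and 92.4 to 96.7 in OGD/R+Rk2.

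BCL2L2 could not be read in these libraries with any precision. Its CPM was 20.8, 2.17, 21.1 and 20.1 in OGD/R+DMSO and 28.1, 3.66, 25.7 and 8.91 in OGD/R+Rk2. Replicate 2 was the lowest library of each group by a wide margin, and the log2 fold change was 0.06 with a 95% confidence interval from -1.73 to 1.85 (edgeR adjusted p = 0.971). The table also lists BCL2L2-PABPN1, a readthrough gene on the same strand whose exons take in 19.4% of the exon bases of BCL2L2. The readthrough gene was at 7.65, 16.9, 23.0 and 3.43 CPM in OGD/R+DMSO and 14.7, 19.1, 19.5 and 33.3 CPM in OGD/R+Rk2. BCL2L2 therefore held from 11.4% to 85.4% of the counts of the pair in OGD/R+DMSO and from 16.1% to 65.7% in OGD/R+Rk2. Summing the pair before the fit gave a log2 fold change of 0.41 (95% confidence interval -0.28 to 1.11, edgeR adjusted p = 0.376). How reads were divided between the pair was not tested.

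**Figure D4:**
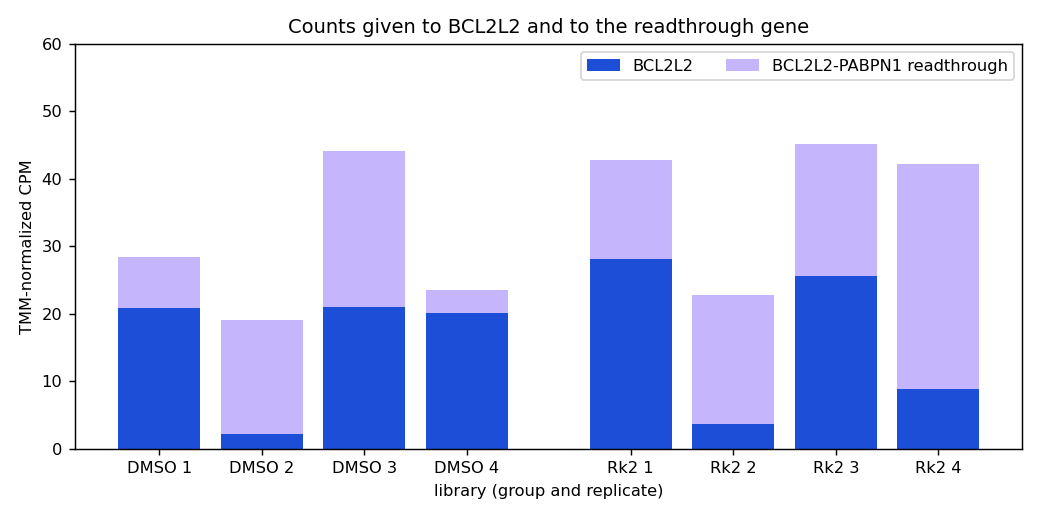
TMM-normalized CPM given to BCL2L2 (dark) and to the readthrough gene BCL2L2-PABPN1 (light), stacked, in each library. In replicate 2 of both groups BCL2L2 is at 2.17 and 3.66 CPM while the readthrough gene is at 16.9 and 19.1 CPM.

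Levels of different members can be set beside each other only per length, on the FPKM scale, and are given without a test. BCL2L1 supplied 70.2% of guardian FPKM in OGD/R+DMSO and 67.1% in OGD/R+Rk2, MCL1 supplied 28.6% and 31.0%, and BCL2L2 supplied 1.26% and 1.84% (means of 4 libraries). Guardians together were at 350.5 ± 25.2 FPKM in OGD/R+DMSO and 306 ± 8.14 FPKM in OGD/R+Rk2 (SD, n = 4 each). The deposited FPKM summed to more in the DMSO libraries (515441 to 536025) than in the Rk2 libraries (489587 to 500027). With every library rescaled to the same sum, the guardian levels were 620.4 to 735 in OGD/R+DMSO and 603 to 647 in OGD/R+Rk2, and overlapped. The ratios and shares of FPKM do not depend on this scaling. The 5 BH3-only genes together were at 76.9 ± 7.77 and 86.7 ± 3.76 FPKM, and the effectors at 83.0 ± 9.39 and 79.9 ± 3.94 FPKM (SD, n = 4 each). Guardian transcripts thus outnumbered BH3-only transcripts in every library. The ratio of the sums was 4.53, 4.13, 3.99 and 5.81 in OGD/R+DMSO and 3.34, 3.34, 3.70 and 3.79 in OGD/R+Rk2, with no overlap. OGD/R+DMSO replicate 4 had the highest ratio, and in that library BID was at 33.7 FPKM against 45.0 to 49.1 in the other DMSO libraries.

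Within the BH3-only sum, BID held the largest share of FPKM in all 8 libraries. Its mean share was 56.6% in OGD/R+DMSO and 44.4% in OGD/R+Rk2. The share of BMF was 22.6% and 30.5%, that of PMAIP1 9.98% and 12.03%, that of BCL2L11 8.12% and 9.49%, and that of BBC3 2.75% and 3.59%. The shares of BID and BMF differed most, with no overlap between groups in either share. A share also moves with the other genes of the sum. The FPKM of BID itself overlapped, at 33.7 to 49.1 in OGD/R+DMSO and 35.9 to 41.5 in OGD/R+Rk2. The ratio of BCL2L1 to BMF, a guardian and a BH3-only protein that binds it, was 14.3 ± 1.66 in OGD/R+DMSO and 7.82 ± 0.691 in OGD/R+Rk2 on the FPKM scale (SD, n = 4 each). From counts BCL2L1 was called lower and BMF higher in these libraries, so the ratio restates those results and adds no separate support. These are levels of RNA, and protein was not measured in these files.

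**Figure D5:**
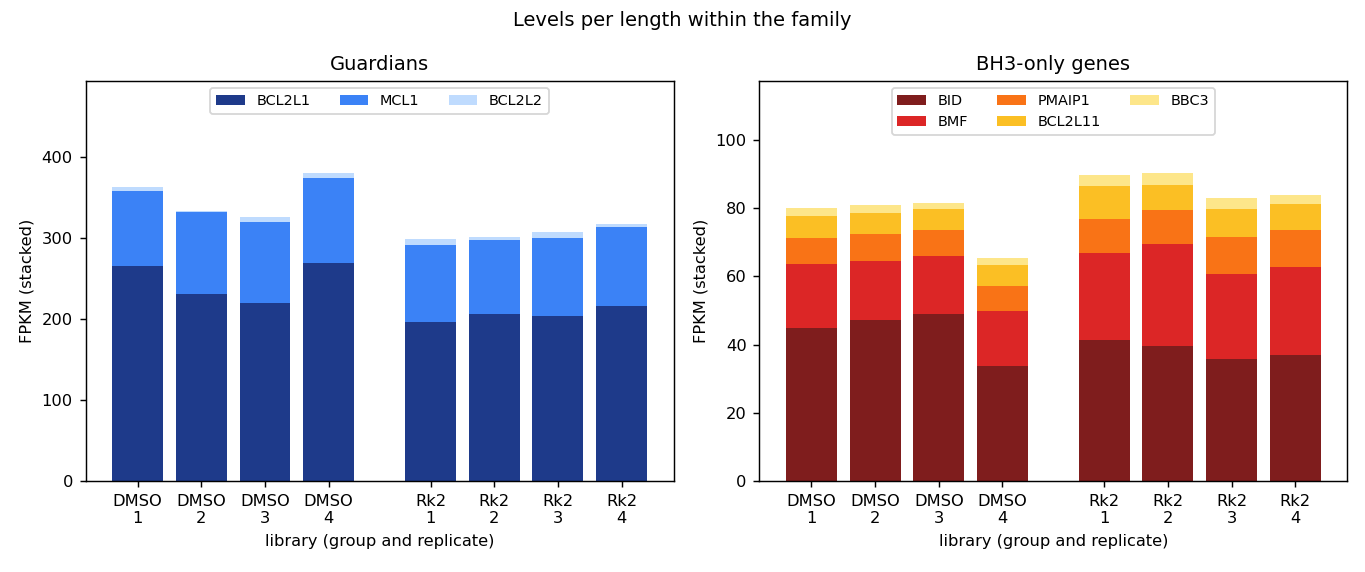
FPKM of the 3 guardians (left) and of the 5 BH3-only genes (right), stacked in each library, with axes from 0. The guardian sum is 326 to 380 FPKM in OGD/R+DMSO and 299 to 317 in OGD/R+Rk2 as deposited (overlapping once every library is rescaled to the same sum), and the BMF layer is thicker in each Rk2 library.

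Other genes of the family were read from a list beside the 10. Of 16 listed, 11 passed the count filter, 0 were called higher and 2 lower in edgeR (2 were higher at an unadjusted p of 0.05), and 2 of 11 is the share called among all genes, 18.2%. BOK, an effector homologue, was at 36.9 ± 1.89 and 29.9 ± 1.12 CPM (SD, n = 4 each), and fell by 0.31 on the log2 scale (edgeR adjusted p = 0.00918). BCL2L12 fell by 0.24 (edgeR adjusted p = 0.0223), although IRF3 on the opposite strand overlaps 33.1% of its exon bases and its edgeR adjusted p was 0.115 with the length offset. The BH3-only genes BAD and BIK did not pass: BAD had a log2 fold change of -0.32 (edgeR adjusted p = 0.152) and BIK one of -0.15 (edgeR adjusted p = 0.391). Of all 11 genes tested from this list, 5 had a positive log2 fold change and 6 a negative one. BCL2 itself had 2 to 7 counts per library in OGD/R+DMSO and 4 to 6 in OGD/R+Rk2, too few to compare. HRK, a BH3-only gene best known from neurons, was below the filter with 4, 4, 7 and 8 counts in OGD/R+DMSO and 36, 17, 9 and 14 in OGD/R+Rk2. As CPM the HRK groups did not overlap, at 0.291 ± 0.105 and 0.833 ± 0.273 (SD, n = 4 each, two-sided exact permutation p = 0.0286, unadjusted and the smallest possible). Separate groups were found in 28.3% of all genes tested, and the HRK values rest on few counts.

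Downstream of the mitochondrion the list of 23 apoptosome, caspase and inhibitor genes was all tested, with 2 called higher and 1 lower, against 11.0% and 7.24% of all genes. CASP9, the initiator that the apoptosome activates, had a log2 fold change of -0.09 (edgeR adjusted p = 0.668). BIRC6, an inhibitor of caspases and of apoptosis, rose by 0.52 (edgeR adjusted p = 0.0393) with overlapping groups. BIRC5 (survivin) fell by 0.94 on the log2 scale (edgeR adjusted p = 6.6e-05), and with the per-library length offset its log2 fold change was -0.22 (edgeR adjusted p = 0.346).

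Of 18 transcription regulators known to act on BH3-only genes, all were tested, 7 rose and 0 fell in edgeR (0 fell also at an unadjusted p of 0.05), with a median log2 fold change of 0.19, where 11.0% of all genes were called higher and 7.24% lower. The same 7 passed with the per-library length offset, in which 5.59% of all genes were called higher. This list was chosen with earlier results of these data known. Its genes are also not independent, since some act on each other, so the count describes the list and carries no test. FOXO3, a forkhead factor that activates BCL2L11 and BBC3, rose from 31.4 ± 3.21 to 46.3 ± 4.11 CPM (SD, n = 4 each), giving a log2 fold change of 0.56 (edgeR adjusted p = 0.00604). ATF4, the factor of the integrated stress response, rose from 515 ± 35.9 to 693 ± 13.4 CPM (SD, n = 4 each), giving a log2 fold change of 0.43 (edgeR adjusted p = 0.00185). DDIT3 (CHOP), which ATF4 induces, rose by a log2 fold change of 1.05 (edgeR adjusted p = 0.0297), and MARS on the opposite strand overlaps 27.2% of its exon bases. CEBPB rose by 0.65 (edgeR adjusted p = 1.7e-04), JUND by 0.33 (edgeR adjusted p = 0.0165) and JUN by 0.24 (edgeR adjusted p = 0.0171), all on the log2 scale. ATF3 was the seventh, at 34.5 ± 13.9 and 87.9 ± 6.28 CPM (SD, n = 4 each, edgeR adjusted p = 0.0247).

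The promoters of the members were read for letters that such factors bind. RefSeq promoters (GRCh38.p14, 250 bases before a transcript start) were at hand for 8 of the 10 members, all but MCL1 and BCL2L2. The members had 14 promoter windows, some of them overlapping, while the shares of all promoters are per window. The forkhead word GTAAACA, on either strand, was in 2.98% of 35116 promoters and, among the members, in BCL2L11 alone, 223 bases before the start. As the only member promoter with this word, it follows (chr2:111120664-111120913, plus strand, 76.8% GC) with the word in capitals. Whether FOXO3 acts on BCL2L11 in these cells was not tested.
BCL2L11 promoter: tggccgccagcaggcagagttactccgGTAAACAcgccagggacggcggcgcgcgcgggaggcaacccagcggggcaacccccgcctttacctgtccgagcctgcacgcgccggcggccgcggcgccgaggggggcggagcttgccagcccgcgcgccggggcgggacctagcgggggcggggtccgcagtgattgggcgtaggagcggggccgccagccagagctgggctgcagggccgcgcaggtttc
The composite word of C/EBP and ATF factors, TGATGNAA, was in 3.14% of promoters and in no member. The E-box CACGTG was in 6.34% of promoters and in those of BBC3, BAX and BID, with 4 copies in BAX at 138, 93, 45 and 14 bases before the start. The BID match was the same site in overlapping windows. A match shows letters and no binding, and no match says only that the letters are not in this window.

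Of 17 genes for turnover or tethering of BCL2 family proteins, 15 were tested, 2 rose and 2 fell in edgeR, numbers near the 11.0% and 7.24% of all genes called in those directions. DYNLL1 and DYNLL2 encode the dynein light chains to which BIM and BMF are tethered. DYNLL1 fell by 0.28 on the log2 scale, from 183 ± 16.02 to 151 ± 4.68 CPM (SD, n = 4 each, edgeR adjusted p = 0.0211). DYNLL2 fell by 0.19, from 178 ± 1.28 to 156 ± 7.25 CPM (SD, n = 4 each, edgeR adjusted p = 0.0154). Both also passed with the length offset, where DYNLL1 had an adjusted p of 0.0415 and DYNLL2 one of 0.0462 in edgeR. USP9X, a deubiquitinase that stabilises MCL1, rose by 0.42 (edgeR adjusted p = 0.0452), and MAPK8 (JNK1), a kinase that phosphorylates BIM and BMF, by 0.23 (edgeR adjusted p = 0.0455). Neither USP9X nor MAPK8 passed with the length offset.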

How the data were processed

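RNA-seq counts and FPKM of 8 HuH7 libraries (4 OGD/R+DMSO, 4 OGD/R+Rk2) were used, with groups and replicate numbers taken from the deposited labels. The authors deposited unnormalized read counts for 15767 genes and FPKM, normalized for transcript length and library size, for 19799 genes. The submitters' processing notes name FastQC 0.11.5, HISAT2 2.2.1, StringTie 1.3.3 and hg38. The read counter, its strand setting and the annotation are not given in the sources used here. In the table of counts, 22 symbols had become dates (0.111% of counts) and were left out. MARCH5 was not analysed here.

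Counts were fitted in R 4.3.3 with edgeR 4.0.16 (TMM, robust quasi-likelihood, condition as the only term) on the 12910 genes that reached 10 counts in 4 or more libraries, with Benjamini-Hochberg adjustment over all of them and a threshold of 0.05. The study's own tool, DESeq2 (1.42.0), was an alternative, as were limma 3.58.1 on FPKM (mean of at least 0.5) and on voom weights, other scalings and filters, a replicate block, a loess correction (span 0.5) for gene length, and leaving out each library. The per-library length offset and the sum of BCL2L2 with its readthrough gene were added after seeing the data. Implied length was counts divided by FPKM and by total counts, scaled to nt. Its comparison over 11321 genes kept tested genes with a mean of at least 50 counts. The offset fit had no such floor and used 12745 genes that passed the count filter and had an implied length in every library. The members and lists were chosen with earlier results of these data known.

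All 10 members are described. From the other lists, at most the 4 genes of smallest p in each direction are named, with BCL2, BAD, BOK, BIK, HRK, CASP9, FOXO3 and DDIT3 whatever their result. The 5 genes with the highest and the 5 with the lowest Pearson r with BMF are named as a description. A few genes that these rules select are counted but not reported here. Single values were compared by two-sided exact permutation tests, whose smallest p with 4 libraries against 4 is 0.0286. On simulated data the edgeR step found 93% of 200 genes changed 2-fold among 12910, with 3 false calls. Every simulated gene had the same dispersion, so these values do not apply to smaller changes or to genes with an outlying library.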

Additional observations from a re-analysis of the deposited data

Results flagged for a closer look

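In 3 of the 20 groups of 4 libraries examined (10 members in 2 conditions), 1 library lay apart from the others by Dixon's 95% criterion, which chance alone meets in about 1 of 20 groups. BCL2L11 was at 13.7 CPM in OGD/R+Rk2 replicate 2 and at 35.3 to 37.2 CPM in the other 3 Rk2 libraries. BID was at 68.2 CPM in OGD/R+Rk2 replicate 4 and at 76.1 to 77.6 CPM in the other Rk2 libraries. BCL2L2 was at 2.17 CPM in OGD/R+DMSO replicate 2 and at 20.1 to 21.1 CPM in the other DMSO libraries.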

How the results depend on the processing

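BMF and PMAIP1 passed the threshold in all 20 alternatives, with log2 fold changes of 0.48 to 0.61 and 0.38 to 0.44. BCL2L1 passed in 18 of 20 and missed in limma on log2(FPKM + 1) and log2(FPKM + 0.1) (adjusted p = 0.0885 and 0.101). BCL2L11 passed in 17 of 20, with log2 fold changes of 0.35 to 1.75, and missed with voom weights, the replicate block and the length offset. BID passed in 2 of 20 and MCL1 in 5 of 20, both of them in DESeq2 and with upper-quartile scaling, where 7 members were called. BBC3 passed in 11 of 20, and BAK1 in 0 of 20. BAX had a log2 fold change of 0.00398 after the gene length correction (edgeR adjusted p = 0.978). With 1 library left out, BCL2L2 ranged from -0.34 to 0.39 and turned to -0.31 without OGD/R+DMSO replicate 2, -0.34 without OGD/R+Rk2 replicate 1 and -0.22 without OGD/R+Rk2 replicate 3. The causes were not tested.

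Leaving out 1 library at a time gave 4 to 6 members called (5 with none left out), 1 to 3 genes of the other BCL2 family (2), 1 to 4 of the apoptosome list (3), 5 to 7 regulators (7), 1 to 3 turnover genes (4) and 1293 to 2287 of all genes (2352). The count over all genes was 1467, 1510 and 1293 without OGD/R+Rk2 replicates 2, 3 and 4. With the length offset 3 members, 1 gene of the other BCL2 family, 1 of the apoptosome list, 2 of the turnover list and 1080 of all genes were called. With limma on log2(FPKM + 1) the counts were 1, 1 and 0 for those lists and 1041 over all genes, and with log2(FPKM + 0.1) they were 1, 1, 0 and 990. The gene length correction called 1 gene of the other BCL2 family and 2 of the turnover list, no filter on low counts called 2 of the turnover list, and upper-quartile scaling called 5 of the apoptosome list. The guardian to BH3-only ratio ranged over 4.22 to 4.83 in OGD/R+DMSO and 3.46 to 3.61 in OGD/R+Rk2 with 1 library left out.

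The replicate numbers are shared by the groups, and deviations from the group means correlated weakly between same-numbered libraries (0.0124 to 0.0909 over the genes tested). These correlations do not settle whether same-numbered libraries shared a batch, which was not tested. BCL2L2 was low in replicate 2 of both groups, at 2.17 CPM in OGD/R+DMSO and 3.66 CPM in OGD/R+Rk2. With the replicate block 3 members were called, and the value of BCL2L11 was 1.43 on the log2 scale (edgeR adjusted p = 0.0652) and BBC3 one of 0.44 (edgeR adjusted p = 0.1002). In 2 of 4 cases a library correlated best with its own number. Among the members, depth limited BBC3, which had the fewest counts apart from BCL2L2 in single libraries. Intervals cover the spread between these libraries and no other source of error.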

Other observations

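The genes whose log2 CPM ran most nearly parallel to BMF over the 8 libraries, among 9199 genes, were DAGLA and CYP51A1 (Pearson r = 0.997 each), UAP1L1 (r = 0.996), SLC1A4 and GFPT1 (r = 0.995 each). CYP51A1, an enzyme of cholesterol synthesis, was at 219 ± 7.39 CPM in OGD/R+DMSO and 357 ± 9.26 CPM in OGD/R+Rk2 (SD, n = 4 each). GFPT1, which opens the hexosamine pathway, was at 144 ± 8.34 and 247 ± 6.56 CPM, and SLC1A4, a neutral amino acid transporter, at 38.3 ± 3.07 and 77.6 ± 2.0 CPM (SD, n = 4 each). Among the genes that ran most nearly opposite were SLC29A3, TMUB1, MT-CO3 and H3F3C, with r from -0.995 to -0.994. MT-CO3, a mitochondrially encoded subunit of cytochrome c oxidase, was at 11065 ± 212 CPM in OGD/R+DMSO and 8699 ± 120.2 CPM in OGD/R+Rk2 (SD, n = 4 each). The points share libraries, depth and the 2 conditions, so these values describe likeness and carry no p.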
